A study of Mus musculus with 36 samples.

Results

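The 7 genes described here encode the mouse receptors for IgG and the kinase that carries their signal. They were chosen by name, through the Ensembl identifiers that map to the symbols Fcgr1, Fcgr2b, Fcgr3, Fcgr4, Fcer1g, Fcgrt and Syk, and are 7 of the 55421 genes in the deposited table. RNA was sequenced from slices of the right hippocampus of 18 mice, all given oral doses over 3 months, starting at 13 months of age and ending at 16. Wild-type (WT, B6) mice were compared with T41B mice, an amyloid model with a Thy1-hAPPLond/Swe transgene, in which the neuronal Thy1 promoter drives human APP bearing London and Swedish changes. Mice received vehicle (VEH) or PTX-BD10-2 (BD10-2 below), which acts as a TrkB and TrkC partial agonist. Slices were given theta-burst stimulation (STIM: 3 trains of 10 bursts, each of 4 stimuli at 100 Hz, with 200 ms between bursts) or a sham procedure of the same length (noSTIM), and were frozen straight away. The WT VEH and T41B VEH groups held 4 mice each in the sham and in the stimulated state. The WT BD10-2 groups held 3 mice in each state and the T41B BD10-2 groups 5. Sham and stimulated slices of the same animal were sequenced for 14 of the 18 mice. No group lacked both gavage and slicing, so every level below is that of an acute slice from a dosed, aged mouse.

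Fc gamma receptors bind the constant part of IgG and let phagocytes respond to antibody-coated material. Fcgr1, Fcgr3 and Fcgr4 are activating receptors that need the common gamma chain, encoded by Fcer1g, whose tyrosine motif (ITAM) is phosphorylated by Src-family kinases and then recruits Syk. Fcgr2b is the inhibitory receptor; its own motif (ITIM) recruits the phosphatase SHIP1, encoded by Inpp5d. Fcgrt encodes the heavy chain of FcRn, which pairs with beta-2 microglobulin (B2m) and returns IgG from endosomes instead of signalling through Syk. In brain tissue the Fc gamma receptors, Fcer1g and Syk are known mainly from microglia and border macrophages.

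Library totals ran from 11597555 to 28125842 expected counts (median 18082415), and all 7 genes passed the low-count filter that left 19478 genes. Levels are given as CPM (counts scaled by the TMM-adjusted library size), with the mouse as the replicate. Thy1, whose cassette drives the transgene, lay at 255 to 400 CPM, here of the plain library total, in the 16 WT libraries and at 880 to 2412 in the 20 T41B libraries, with no overlap. The lowest T41B value belongs to 1 of the 2 libraries labelled as the stimulated slice of Mouse1592. Those 2 libraries differ widely (Thy1 880 against 1909, Fcgr2b 4.01 against 13.2, Syk 21 against 35.3 CPM). The edgeR calls and differences of the 7 genes that rest on them are therefore also given without that mouse. The 2 libraries labelled as the sham slice of Mouse1557 also differ (Fcgr3 27.7 against 15.3, Fcgr2b 17.7 against 10.7, Fcer1g 20.4 against 12.4 CPM). In these whole slices, fewer cells of a type and less RNA per cell cannot be told apart.

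Fcgr2b, Fcgr4 and Fcgr3 lie within 106.3 kb of mouse chromosome 1 (GRCm38), and Fcer1g extends that cluster to 275.7 kb. In GENCODE M21, Fcgr2b spans 170958617 to 170976547 on the minus strand, Fcgr4 spans 171018920 to 171029761 on the plus strand, and Fcgr3 spans 171051174 to 171064935 on the minus strand. Fcer1g follows at 171229572 to 171234365 on the minus strand. Fcgr1 is on chromosome 3 (96282909 to 96293969, minus), Fcgrt on chromosome 7 (45092990 to 45103851, minus) and Syk on chromosome 13 (52583173 to 52648792, plus). All are protein-coding. Fcgr2b and Fcgr3 share sequence: 11.4% of the 50-base words of the Fcgr2b transcript and 12.8% of those of the Fcgr3 transcript recur in other genes. Those of Fcgr3 recur in Fcgr2b alone, and those of Fcgr2b in Fcgr3 and at least 4 further genes. Their counts hold decimals in 29 of 36 libraries each, while the other 5 genes share no such word and hold whole counts, so the split of reads between Fcgr2b and Fcgr3 is an estimate. Fcgr2b overlaps the antisense gene Gm38204 and Fcgrt the antisense gene Gm45669, and the strand setting of the counting is not given in the sources used here.

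The promoter windows of the 3 activating receptors are shown because each holds the core letters of a PU.1 site, the binding site of a myeloid lineage factor. The windows are from RefSeq (GRCm38.p6), run from 250 bases before to 50 bases after the transcription start, and were matched for 7 of 7 genes. All are written 5′ to 3′ on the gene's own strand. Capitals mark GAGGAA or its reverse complement in all 3 windows, and also an interferon-type match, GAAANNGAA, in Fcgr4 and a STAT-type match, TTCNNNGAA, in Fcgr1. The windows are chr3:96293920-96294219 on the minus strand, chr1:171059354-171059653 on the minus strand and chr1:171018676-171018975 on the plus strand.
Fcgr1: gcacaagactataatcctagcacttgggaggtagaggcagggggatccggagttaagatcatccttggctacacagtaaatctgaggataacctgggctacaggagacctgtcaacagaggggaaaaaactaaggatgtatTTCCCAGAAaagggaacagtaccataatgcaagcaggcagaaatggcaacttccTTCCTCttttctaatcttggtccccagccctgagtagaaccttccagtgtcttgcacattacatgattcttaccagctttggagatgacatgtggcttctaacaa
Fcgr3: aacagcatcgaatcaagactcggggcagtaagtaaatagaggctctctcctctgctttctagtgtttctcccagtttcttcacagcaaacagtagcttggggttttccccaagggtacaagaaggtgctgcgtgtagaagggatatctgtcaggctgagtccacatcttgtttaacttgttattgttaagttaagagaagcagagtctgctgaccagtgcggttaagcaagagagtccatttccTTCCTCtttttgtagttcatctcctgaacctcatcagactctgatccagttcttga
Fcgr4: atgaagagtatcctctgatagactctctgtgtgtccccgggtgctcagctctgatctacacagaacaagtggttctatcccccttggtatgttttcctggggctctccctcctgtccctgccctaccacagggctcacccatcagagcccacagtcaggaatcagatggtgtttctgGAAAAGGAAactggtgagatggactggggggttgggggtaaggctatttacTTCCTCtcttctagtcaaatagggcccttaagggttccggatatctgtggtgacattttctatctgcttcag

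The PU.1 core match begins 55 bases before the start in Fcgr1, 6 before it in Fcgr3 and 22 before it in Fcgr4, each on the opposite strand. Both strands were searched for 6 motifs. GAGGAA was found in the first window of 3 of the 7 genes and in 28.3% of all 27025 windows of this length. The GAAANNGAA match of Fcgr4 begins at -73 (8.57% of all windows hold one) and the TTCNNNGAA match of Fcgr1 at -109 (8.47%). A C/EBP match, TTGCNNAA, was found in Fcgr3 and Fcgrt (10.8% of all windows), an NF-kappaB match in Fcgr3 and Fcgr4 (8.18%), and the AP-1 letters TGANTCA in none of the 7 (7.93%). Fcgr3 and Syk each have a second RefSeq start, whose window holds GAGGAA at -15 in Fcgr3 (opposite strand) and at -9 in Syk. The NF-kappaB and C/EBP matches are not in capitals, and a match describes letters in these windows only.

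The inhibitory receptor Fcgr2b and the activating receptor Fcgr3 were called higher in T41B than in WT slices in all 4 genotype comparisons, and Fcgr1 and Fcgr4 in 3 of the 4. Fcgr2b measured 1.72, 2.02, 1.89 and 2.43 CPM in the 4 sham WT VEH mice and 9.06, 17.4, 11.1 and 16.1 in the 4 sham T41B VEH mice. The groups were far apart, with every T41B value above every WT value. The log2 difference was 2.73, with a standard error (given after ± throughout for log2 values) of 0.30 and an edgeR adjusted p of 4.61e-07. Stimulated VEH slices gave 1.67, 1.71, 1.86 and 1.72 CPM in WT and 8.82, 11.8, 9.41 and 10.0 in T41B (2.52 ± 0.30, edgeR adjusted p 2.56e-06). Under BD10-2 the log2 difference was 2.64 ± 0.31 in sham and 3.31 ± 0.33 in stimulated slices (edgeR adjusted p 1.94e-06 and 1.05e-07). Across both treatments, all 9 T41B mice lay above the highest of 7 WT mice in either state.

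Fcgr3, the low-affinity activating receptor, was the most abundant Fc gamma receptor per length in each of the 8 groups. In sham VEH slices it measured 5.81, 5.33, 8.05 and 7.22 CPM in WT and 15.7, 33.9, 28 and 23 in T41B. The groups did not overlap, and T41B was higher by 1.93 ± 0.22 on the log2 scale (edgeR adjusted p 7.45e-07). Stimulated VEH slices gave 2.18, 2.53, 3.11 and 4.18 CPM in WT and 8, 13.0, 10.8 and 8.07 in T41B (1.74 ± 0.24, edgeR adjusted p 1.61e-05). Under BD10-2 the genotype difference was 1.48 ± 0.23 in sham and 2.48 ± 0.25 in stimulated slices (edgeR adjusted p 6.65e-05 and 1.19e-07).

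Fcgr1, the high-affinity receptor, was scarcer. Sham WT VEH slices held 1.3, 1.73, 1.07 and 1.44 CPM and sham T41B VEH slices 2.19, 7.85, 4.62 and 4.67, a log2 difference of 1.81 ± 0.49 (edgeR adjusted p 0.0226). After stimulation the values were 0.463, 0.220, 1.69 and 0.492 CPM in WT and 3.36, 7.27, 6.77 and 4.23 in T41B (2.85 ± 0.51, edgeR adjusted p 0.000469). All T41B values thus lay above all WT values in both VEH comparisons. In BD10-2 slices the difference was 1.3 ± 0.48 in the sham state, which missed the threshold (edgeR adjusted p 0.118, and 0.00711 with only these groups in the fit), and 3.82 ± 0.57 in the stimulated state (edgeR adjusted p 2.37e-05). The sham VEH call of Fcgr1 was lost with batch as a covariate (1.02, edgeR adjusted p 0.624), with the mouse as a random block (1.70, adjusted p 0.182 in limma), without Mouse1509 (edgeR adjusted p 0.0793) and without Mouse1551 (edgeR adjusted p 0.134).

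Fcgr4, an activating receptor for IgG2 subclasses, was close to the detection limit in WT slices. The 4 sham WT VEH mice held 0, 3, 2 and 1 counts, and the sham T41B VEH mice 11, 28, 12 and 13. Summed counts scaled by library size gave a ratio of 9.21, with a 95% exact interval of 4.00 to 26 that covers counting error only. In stimulated VEH slices the counts were 4, 1, 1 and 4 in WT and 33, 36, 38 and 14 in T41B, a ratio of 13.1 (6.88 to 28). In BD10-2 slices the ratio was 3.07 (1.64 to 6.17) in the sham state and 28.8 (13.8 to 72.4) in the stimulated state. Over mice, the test passed for sham VEH (edgeR adjusted p 0.0110), stimulated VEH (0.000421, the same edgeR adjusted p) and stimulated BD10-2 slices (edgeR adjusted p 1.39e-05), and not for sham BD10-2 slices (edgeR adjusted p 0.201). The sham VEH call was lost with batch as a covariate (edgeR adjusted p 0.176), with the mouse as a random block (adjusted p 0.129 in limma), without Mouse1509 (edgeR adjusted p 0.0639) and without Mouse1551 (edgeR adjusted p 0.0671).

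Fcer1g, the shared signalling chain, rose with the receptors. Sham VEH slices gave 4.03, 5.48, 4.15 and 6.12 CPM in WT and 13.1, 28, 22.3 and 15.6 in T41B, a log2 difference of 2.00 ± 0.24 (edgeR adjusted p 1.24e-06). The groups were apart in every mouse. The difference was 1.62 ± 0.23 in stimulated VEH slices, 1.81 ± 0.24 in sham BD10-2 slices and 1.82 ± 0.24 in stimulated BD10-2 slices (edgeR adjusted p 2.27e-05, 1.35e-05 and 5.32e-06).

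Syk, the kinase downstream of that chain, differed less by genotype in point estimate than the 4 Fc gamma receptors did. It measured 5.93, 5.48, 7.42 and 7.91 CPM in sham WT VEH slices and 10.8, 16.0, 14.7 and 12.3 in sham T41B VEH slices, a log2 difference of 1.01 ± 0.19 (edgeR adjusted p 0.00100). In stimulated VEH slices the values were 13.4, 11.6, 15.9 and 16.3 against 31, 43.8, 30.2 and 31.2 (1.25 ± 0.18, edgeR adjusted p 2.99e-05). BD10-2 slices gave 1.01 ± 0.20 in the sham and 1.26 ± 0.19 in the stimulated state (edgeR adjusted p 0.00132 and 2.56e-05). Every T41B value lay above every WT value within each state.

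Fcgrt, the IgG-recycling receptor, changed least by genotype. Its sham VEH values were 7, 6.56, 6.98 and 6.64 CPM in WT and 6.94, 9.03, 9.35 and 8.29 in T41B, and the groups overlapped. The log2 difference was 0.31 ± 0.12 in sham and 0.15 ± 0.13 in stimulated VEH slices, neither past the threshold (edgeR adjusted p 0.146 and 0.608). In BD10-2 slices it was 0.48 ± 0.13 and 0.45 ± 0.13 (edgeR adjusted p 0.0214 and 0.0204). The sham call was lost with no low-count filter and without any 1 of Mouse1565, Mouse1570, Mouse1571, Mouse1590 or Mouse1592 (edgeR adjusted p 0.0533 to 0.101). The stimulated call was lost with no low-count filter, with the first of same-label libraries, with only these groups, with batch as a covariate, and without Mouse1564, Mouse1565 or Mouse1586 (edgeR adjusted p 0.0683 to 0.143). B2m, which encodes its light chain, was higher in T41B slices in all 4 comparisons, by 1.98 ± 0.24, 1.36 ± 0.23, 1.69 ± 0.25 and 1.89 ± 0.25 on the log2 scale (largest edgeR adjusted p 0.000272).

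**Figure D1:**
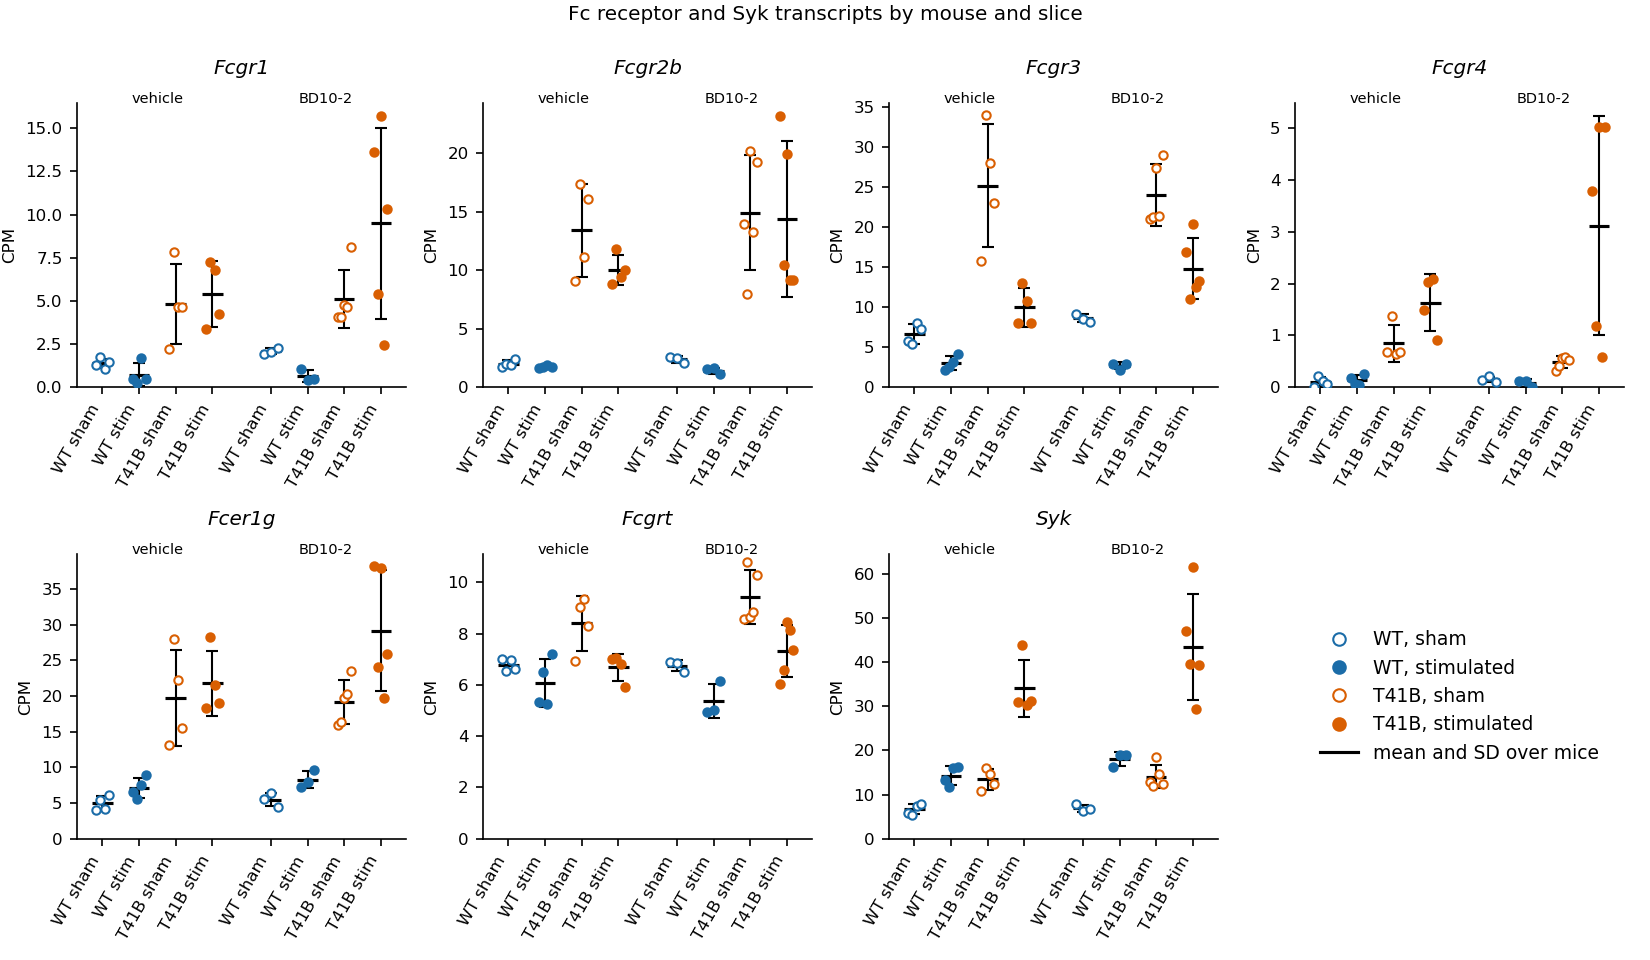
Level of each of the 7 genes in CPM (y axis, from 0) for each mouse in the 8 groups (x axis), with open points for sham and filled points for stimulated slices; black bars are the mean and SD over mice. The T41B points of Fcgr2b, Fcgr3, Fcgr4, Fcer1g and Syk all lie above the WT points of the same state, while those of Fcgrt overlap.

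Counted over the list, 6 of 7 genes were called higher in T41B sham VEH slices, where 5.0% of all 19478 genes were called higher. The count was 6 of 7 in stimulated VEH slices (4.74% of all genes), 5 of 7 in sham BD10-2 slices (4.31%) and 7 of 7 in stimulated BD10-2 slices (8.19%), and none was called lower, against 1.24%, 1.05%, 1.14% and 2.36% of all genes in the same order. The median log2 difference of the 7 genes was 1.93, 1.74, 1.48 and 2.48 in that order, against 0.00, -0.03, 0.01 and -0.02 over all genes tested. Without Mouse1592, the stimulated BD10-2 differences were 4.08 for Fcgr1, 3.44 for Fcgr2b, 2.54 for Fcgr3, 5.27 for Fcgr4 (fitted on few WT counts), 1.94 for Fcer1g, 0.42 for Fcgrt and 1.38 for Syk, and all 7 genes still passed (largest edgeR adjusted p 0.0420, for Fcgrt). Each batch in the labels holds 1 treatment, and 5 of 8 hold both genotypes. Batches A, C, D and I gave 7 comparisons within a batch and state, each of 1 or 2 mice per genotype. In batches A, C and I the sham and stimulated slices of the same mice count separately, so the 7 are not independent. T41B was higher in 7 of 7 for Fcgr1, Fcgr2b, Fcgr3, Fcgr4, Fcer1g and Syk, and in 5 of 7 for Fcgrt (-0.24 to 0.60, difference of mean log2(CPM + 1)).

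The rise was shared with general microglial and macrophage genes, and less evenly with homeostatic microglial genes. Of 11 genes that mark microglia and macrophages in general, among them Csf1r, Aif1 and C1qa, 11, 10, 11 and 11 were called higher in T41B in the 4 comparisons in the same order, with medians of 1.82, 1.61, 1.69 and 1.81. Their summed level was 304 to 400 CPM in sham WT VEH slices and 750 to 1515 in sham T41B VEH slices. Of 8 homeostatic microglial genes, 6, 2, 5 and 6 were called higher in T41B, with medians of 0.95, 0.19, 0.87 and 1.02. The part of cell number in the members' change was not tested. Set against the mean log2 level of the 11 general genes, with no test, Fcgr2b was still higher in T41B by 0.57, 0.57, 0.56 and 0.78 (log2, pseudocount 1). Its WT and T41B values overlapped in sham BD10-2 slices at this pseudocount. Syk was lower in T41B (-0.74, -0.24, -0.70 and -0.61), with overlap in stimulated VEH slices. Fcgrt was lower too (-1.38, -1.31, -1.19 and -1.41). Fcgr3 gave 0.10, 0.02, -0.24 and 0.29, Fcer1g 0.11, 0.05, 0.03 and -0.13, and Fcgr1 -0.44, 0.49, -0.66 and 0.67. These relative values are not given without Mouse1592. The relative level of Fcgr4 turned with the pseudocount: it was -0.92, -0.24, -1.25 and -0.05 with a pseudocount of 1 and 0.58, 1.43, -0.50 and 1.99 with a pseudocount of 0.1, so no direction is given for it. The smaller pseudocount was added after the values with the larger were seen.

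**Figure D2:**
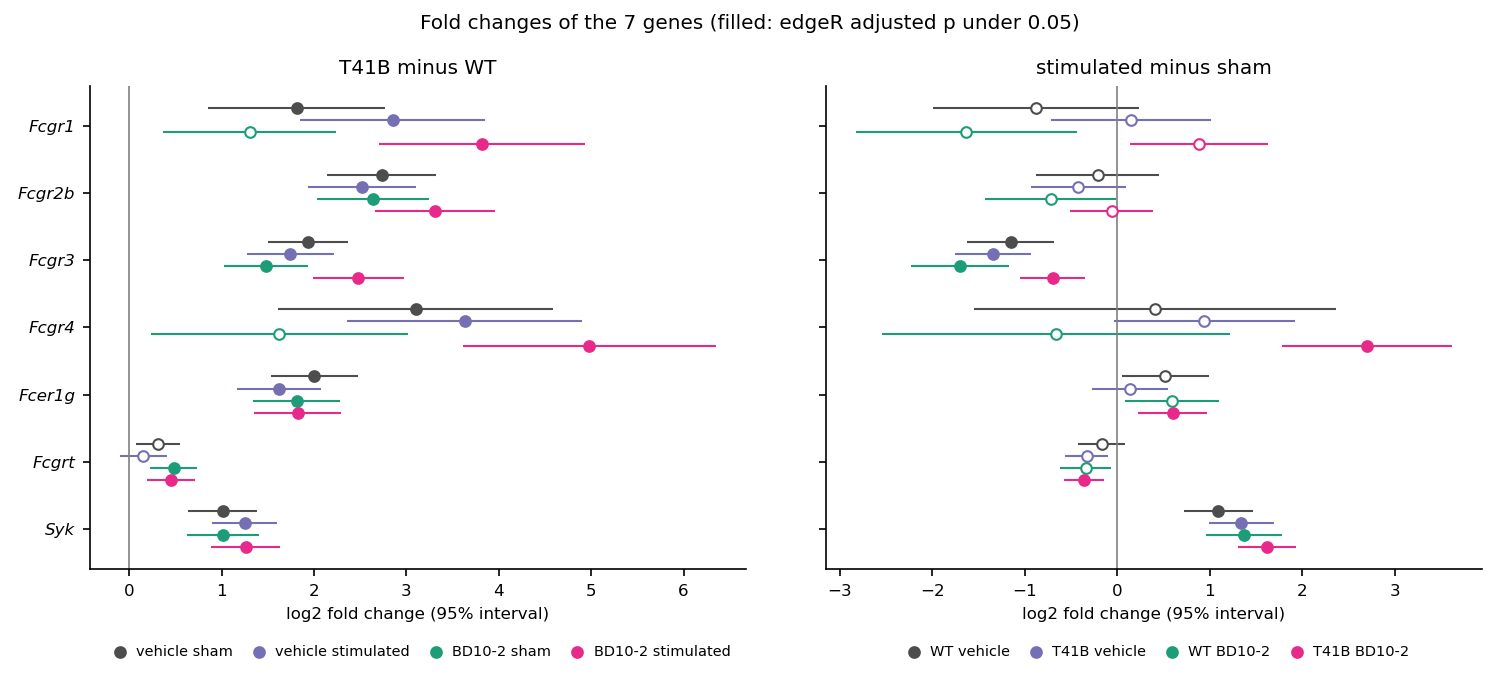
Log2 fold change (x axis) of each of the 7 genes for T41B minus WT (left) and stimulated minus sham slices (right), with 95% intervals from the standard error; colours give the groups compared and filled points passed an edgeR adjusted p of 0.05. The intervals of all genes but Fcgrt lie above 0 in all 4 genotype comparisons, though Fcgr1 and Fcgr4 did not pass in sham BD10-2 slices. On the right Syk lies above and Fcgr3 below 0 in all 4.

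Stimulation moved Syk and Fcgr3 in opposite directions. Syk was higher in the stimulated slice of 14 of 14 mice with both slices, and Fcgr3 was lower in 14 of 14. The log2 change of Syk was 1.09 ± 0.19 in WT VEH, 1.34 ± 0.18 in T41B VEH, 1.37 ± 0.21 in WT BD10-2 and 1.62 ± 0.16 in T41B BD10-2 slices (largest edgeR adjusted p 0.000153). In WT BD10-2 mice Syk measured 7.85, 6.32 and 6.66 CPM in sham slices and 16.3, 19 and 19 in stimulated ones. In T41B BD10-2 mice it measured 12.8, 12, 18.4, 14.6 and 12.4 CPM against 47.0, 39.5, 61.6, 29.4 and 39.3. In these lists the mice of the sham and stimulated states are not in the same order. Stimulated values lay above sham values in all 4 comparisons, with no overlap.

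Fcgr3 fell by 1.15 ± 0.24 in WT VEH, by 1.34 ± 0.21 in T41B VEH, by 1.70 ± 0.27 in WT BD10-2 and by 0.70 ± 0.18 in T41B BD10-2 slices on the log2 scale (edgeR adjusted p 0.00137, 2.36e-05, 5.71e-05 and 0.00569). In WT BD10-2 mice its level was 9.09, 8.56 and 8.12 CPM in sham slices and 2.92, 2.91 and 2.19 in stimulated ones. T41B BD10-2 mice gave 21, 21.2, 27.3, 21.4 and 29 CPM in sham slices and 16.9, 11, 20.3, 12.5 and 13.2 in stimulated ones. In these values, with same-label libraries summed, the highest stimulated one lay under the lowest sham one, but 1 of the 2 sham libraries of Mouse1557 alone (15.3 CPM) lay below 2 of the stimulated values. With the last of same-label libraries in place of their sum the change was -0.53 ± 0.20 (edgeR adjusted p 0.0468). Without Mouse1592 the change in that group was -0.57 ± 0.20 (edgeR adjusted p 0.0444).

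Fcgr4, Fcer1g and Fcgrt also passed the stimulation test in T41B BD10-2 slices. With the mouse as a random block, Fcgrt passed in T41B VEH (-0.32, adjusted p 0.0201 in limma) and WT BD10-2 slices (-0.37, adjusted p 0.0419 in limma) as well. Fcgr4 held 5 to 12 counts in the 5 sham slices (0.309, 0.412, 0.570, 0.578 and 0.530 CPM) and 20 to 84 in the stimulated ones (3.79, 1.18, 5.03, 0.591 and 5.02 CPM). With same-label libraries summed, all stimulated values were above all sham values, though Mouse1592 (0.591) lay just above the highest sham value (0.578), and 1 of its 2 stimulated libraries alone, at 0.428 CPM, lay below 3 of the sham values. The summed counts, 280 against 48, gave a ratio of 6.00 (95% exact interval 4.4 to 8.33, counting error only). The log2 change over mice was 2.7 ± 0.47 (edgeR adjusted p 6.24e-05), or 3.03 ± 0.44 without Mouse1592 (edgeR adjusted p 5.98e-06). In T41B VEH slices the summed Fcgr4 counts were 121 against 64, a ratio of 1.92 (1.4 to 2.64, counting error only), and 4 of 4 mice were higher after stimulation. Over mice the change of 0.94 ± 0.50 missed the threshold (edgeR adjusted p 0.189). Over all pairs Fcgr4 was higher in 10 of 14. Fcer1g was 0.60 ± 0.19 higher in stimulated T41B BD10-2 slices (edgeR adjusted p 0.0211), a call lost with the first of same-label libraries and without Mouse1557, Mouse1563 or Mouse1564 (edgeR adjusted p 0.0658 to 0.103). Over all pairs it was higher in the stimulated slice of 12 of 14 mice. Fcgrt changed by -0.36 ± 0.11 (edgeR adjusted p 0.0165), a call lost with no low-count filter, with only these groups, and without Mouse1563 or Mouse1570 (edgeR adjusted p 0.0508 to 0.120), and it was lower in 12 of 14 pairs. Without Mouse1592 these changes were 0.80 ± 0.20 for Fcer1g, -0.37 ± 0.12 for Fcgrt and 1.69 ± 0.16 for Syk (edgeR adjusted p 0.00362, 0.0311 and 3.7e-09).

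Fcgr2b and Fcgr1 did not pass in any of the 4 stimulation comparisons. Fcgr2b changed by -0.21 ± 0.34, -0.42 ± 0.26, -0.72 ± 0.36 and -0.06 ± 0.23 in WT VEH, T41B VEH, WT BD10-2 and T41B BD10-2 slices, and the last became 0.17 ± 0.24 without Mouse1592. Fcgr2b was lower in 11 of 14 pairs overall and higher in 3 of the 4 T41B BD10-2 pairs. Fcgr1 changed by -0.88 ± 0.57 and -1.63 ± 0.61 in the WT groups and by 0.15 ± 0.44 and 0.88 ± 0.38 in the T41B groups (VEH, then BD10-2). It was higher in 6 and lower in 8 of the 14 pairs. Without Mouse1592, Fcgr1 passed in T41B BD10-2 slices (1.36, edgeR adjusted p 0.00660). In WT BD10-2 slices it passed with only these groups in the fit (edgeR adjusted p 0.0140) and in DESeq2 (adjusted p 0.0357).

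**Figure D3:**
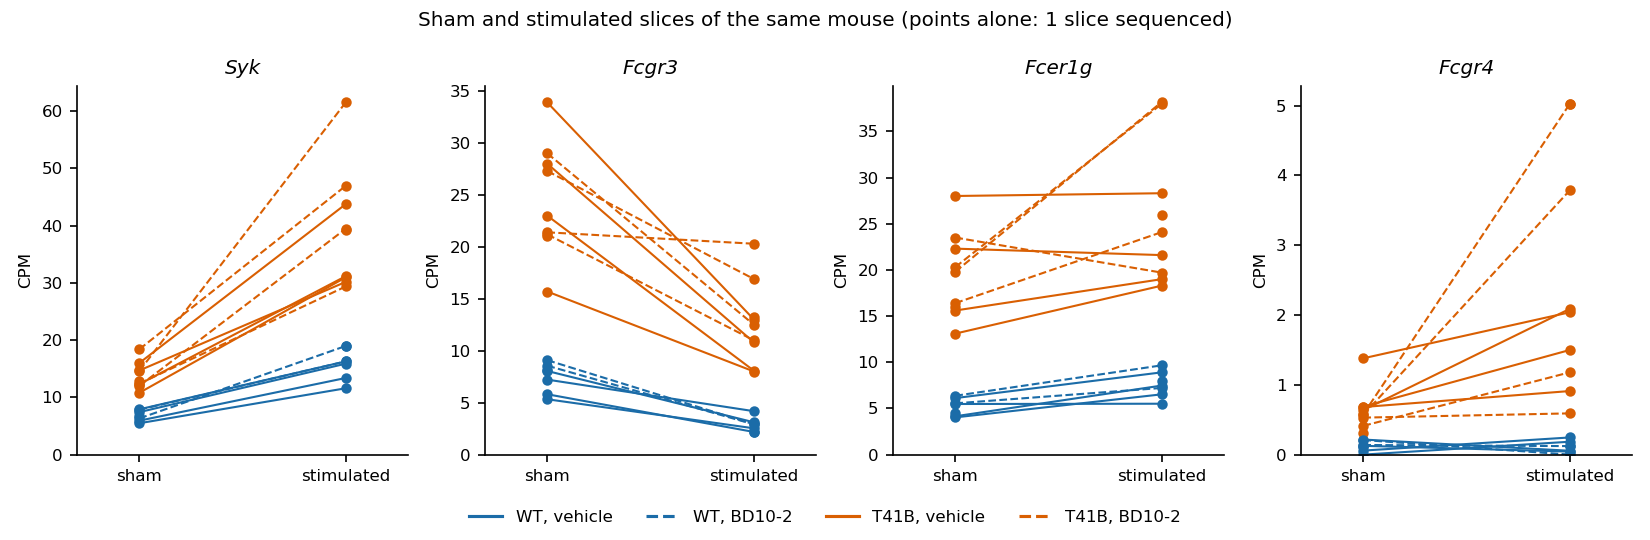
CPM (y axis) of Syk, Fcgr3, Fcer1g and Fcgr4 in the sham and the stimulated slice of each mouse (x axis), joined by a line where both were sequenced; colour gives genotype and dashes the BD10-2 groups. Every Syk line climbs and every Fcgr3 line descends, while Fcer1g climbs in 12 of 14 mice.

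Of the 7 genes, 1 was called higher and 1 lower by stimulation in WT VEH slices, against 8.21% and 4.10% of all genes. The counts were also 1 and 1 in T41B VEH slices (11.7% and 9.83% of all genes) and in WT BD10-2 slices (6.29% and 2.58%). In T41B BD10-2 slices 3 were called higher and 2 lower (13.3% and 9.52%). The median of the 7 was -0.17, 0.14, -0.66 and 0.60 in WT VEH, T41B VEH, WT BD10-2 and T41B BD10-2 slices, against -0.01, -0.05, -0.01 and -0.04 over all genes. Homeostatic microglial genes moved with Fcgr3: 7, 7, 7 and 8 of 8 were called lower in the same 4 comparisons, with Tmem119 at -2.56, -3.50, -3.47 and -3.10. Of the 11 general microglial genes, 5, 6, 4 and 3 were called lower and 1, 0, 1 and 1 higher, with medians of -0.59, -0.57, -0.41 and -0.20. Astrocyte genes were called higher in 3, 3, 0 and 2 of 5, neuronal genes lower in 1, 0, 2 and 2 of 6, and endothelial genes higher in 1, 2, 1 and 2 and lower in 2, 1, 2 and 2 of 7. In WT VEH slices 8 of 8 choroid plexus genes were also called higher in the stimulated state, where their summed level ran from 15.9 to 1229 CPM over mice against 19.4 to 24 in sham slices. In sham T41B VEH slices the sum ran from 18.8 to 534 CPM, with 1 of 8 called higher than in WT, and in stimulated VEH slices 3 of 8 were called lower in T41B. The part of these cell types in the members' values was not tested.

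Because the receptors moved unequally, the make-up of the Fc gamma receptor transcripts differed between groups. Per kilobase of the longest coding transcript, Fcgr3 made up 80.2% ± 4.74 (SD, n = 4) of the summed CPM per kb of the 4 receptors in sham WT VEH slices and 71.5% ± 6.17 in stimulated ones. In T41B VEH slices its share was 74.7% ± 3.37 in the sham and 54.3% ± 0.833 in the stimulated state. The other 3 receptors held larger shares in stimulated T41B VEH slices: Fcgr2b went from 15.4% ± 2.97 to 21.2% ± 3.45, Fcgr1 from 7.16% ± 1.44 to 15% ± 2.38 and Fcgr4 from 2.73% ± 0.75 to 9.47% ± 2.14. The stimulated T41B BD10-2 slices gave 54.1% ± 9.90 for Fcgr3, with 69.9% in Mouse1592 and 45.8% to 57.7% in the other 4 mice.

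The ratio of activating receptors (Fcgr1, Fcgr3 and Fcgr4) to Fcgr2b, per length, was highest in sham WT slices. It was 9.93, 8.43, 12.2 and 8.71 in the sham WT VEH mice and 5.10, 5.97, 7.39 and 4.29 in the sham T41B VEH mice, with no overlap. In stimulated VEH slices it was 4.13, 4.17, 5.71 and 7.18 in WT and 3.39, 4.23, 4.64 and 2.95 in T41B, and those groups overlapped. Under BD10-2 the sham groups were again apart, at 10.3 to 12 in WT and 3.96 to 7.81 in T41B. The stimulated BD10-2 groups overlapped, at 4.19 to 7.48 in WT and 3.18 to 6.87 in T41B. With the merged exon length in place of the longest coding transcript, the mean ratio in sham VEH slices was 12.8 ± 2.13 in WT and 7.45 ± 1.72 in T41B. The estimated split of shared reads between Fcgr2b and Fcgr3 bears on this ratio.

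**Figure D4:**
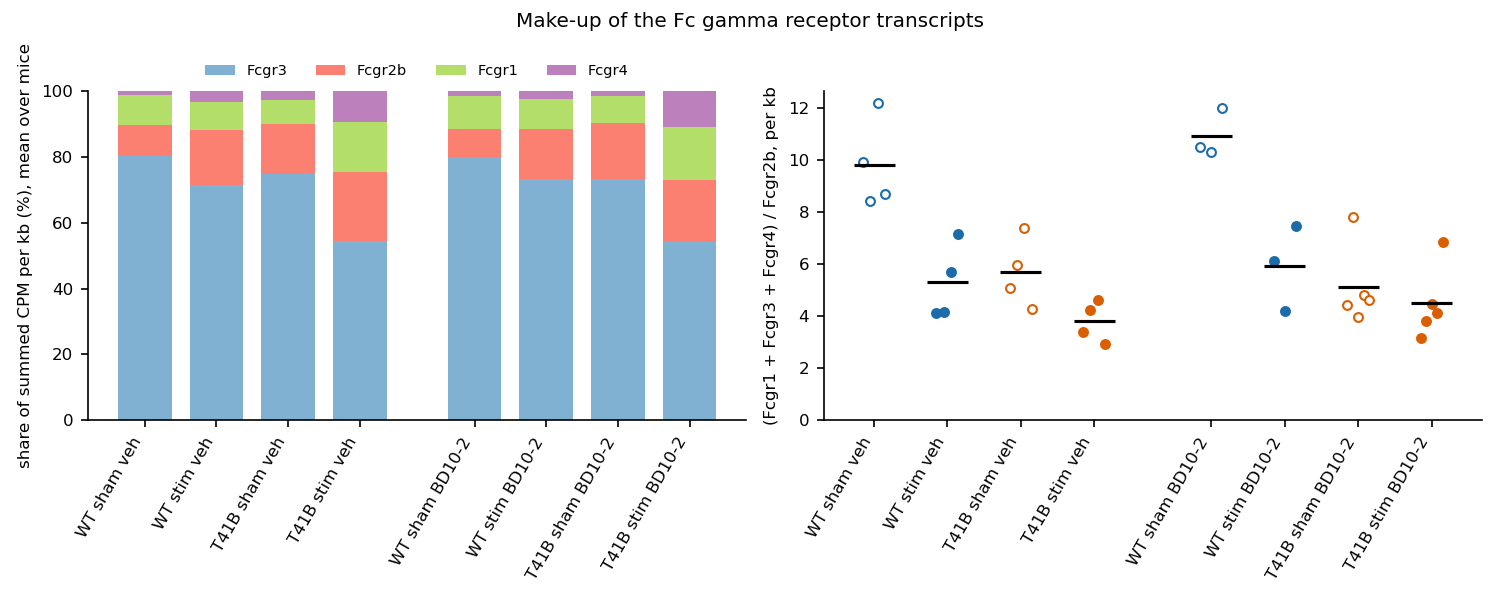
Left, mean share (%) of each Fc gamma receptor in the summed CPM per kb for the 8 groups; right, the ratio of Fcgr1, Fcgr3 and Fcgr4 to Fcgr2b per kb in each mouse, with the group mean as a bar. The share of Fcgr3 is near 80% in sham WT slices and 54.3% and 54.1% in stimulated T41B slices.

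Per length, the order of the 7 genes in sham WT VEH slices was Fcer1g (7.24 ± 1.5 CPM per kb), Fcgr3 (4.90 ± 0.93), Fcgrt (3.84 ± 0.128), Syk (1.25 ± 0.217), Fcgr2b (0.568 ± 0.085), Fcgr1 (0.536 ± 0.107) and Fcgr4 (0.0795 ± 0.0741; SD, n = 4). Fcgr2b and Fcgr1 did not differ beyond their spread. In sham T41B VEH slices Fcer1g (28.9 ± 9.82 CPM per kb) and Fcgr3 (18.7 ± 5.72) stood above Fcgrt (4.75 ± 0.607) and Fcgr2b (3.78 ± 1.12), whose values over mice overlapped. Syk (2.51 ± 0.434) and Fcgr1 (1.87 ± 0.897) followed, again with overlapping values, and Fcgr4 (0.675 ± 0.284) was last. In stimulated T41B VEH slices Syk (6.35 ± 1.22) lay between Fcgr3 (7.41 ± 1.79) and Fcgrt (3.78 ± 0.296), at a mean within the spread of Fcgr3.

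BD10-2 against vehicle gave no call for any of the 7 genes, nor for any gene: edgeR called 0 of 19478 genes (0%) in each of the 4 treatment comparisons, with 374 (WT sham), 1093 (WT stimulated), 431 (T41B sham) and 759 (T41B stimulated) at an unadjusted p under 0.05. DESeq2 called 25 genes in stimulated WT slices, none of them a member, and 0 in the others. Without Mouse1524, edgeR called 26 genes in stimulated and 1 in sham WT slices. The 7 genes gave 0, 0, 0 and 4 unadjusted p-values under 0.05 in that order. In stimulated T41B slices the point estimates were all above 0, with 95% intervals of 0.17 to 0.96 for Fcgr3 (0.56 ± 0.20), 0.03 to 1.01 for Fcgr2b (0.52 ± 0.25), 0.02 to 0.82 for Fcer1g (0.42 ± 0.20) and 0.02 to 0.67 for Syk (0.35 ± 0.16), each at an edgeR adjusted p of 1. Without Mouse1592 the values were 0.62 ± 0.21, 0.65 ± 0.24, 0.53 ± 0.20 and 0.46 ± 0.16, still with no call (smallest edgeR adjusted p of these 0.578). Fcgr4 (0.90 ± 0.44, 0.03 to 1.77) and Fcgr1 (0.80 ± 0.41, 0.00 to 1.61) had larger estimates, with unadjusted edgeR p-values of 0.0507 and 0.0592. Without Mouse1592 they gave 1.19 ± 0.39 and 1.06 ± 0.36, also not called (edgeR adjusted p 0.57 and 0.578). In sham T41B slices the interval was -0.45 to 0.31 for Fcgr3 and -0.27 to 0.40 for Syk. Treatment and batch cannot be told apart in this design.

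The size of the stimulation response was compared between genotypes and between treatments, and edgeR called 0 of 19478 genes (0%) in each of these 4 comparisons. At an unadjusted p under 0.05 there were 1683 and 846 genes for T41B minus WT (VEH, then BD10-2) and 337 and 526 for BD10-2 minus VEH (WT, then T41B), of which 0, 3, 0 and 2 were members. DESeq2 called up to 20 genes in any of the 4, and without Mouse1592 edgeR called 79 genes for T41B minus WT under BD10-2. The largest member value was for Fcgr4 under BD10-2, where the T41B response exceeded the WT response by 3.36 ± 1.09 (edgeR adjusted p 0.797) on few WT counts. Fcgr1 followed with 2.51 ± 0.72 (edgeR adjusted p 0.471), and without Mouse1592 this became 3.00 and passed (edgeR adjusted p 0.0219). Fcgr3 gave 1.0 ± 0.32 (edgeR adjusted p 0.797). Without that mouse Fcgr4 gave 3.70 ± 0.94 and Fcgr3 1.15 ± 0.33, neither called (edgeR adjusted p 0.0938 and 0.201). The Syk response differed between genotypes by 0.25 ± 0.26 under vehicle and by 0.25 ± 0.26 under BD10-2 (0.34 ± 0.25 without Mouse1592). The Fcgr4 response, called in T41B BD10-2 and not in T41B VEH slices, differed between those treatments by 1.76 ± 0.69 (edgeR adjusted p 1), or 2.09 ± 0.61 without Mouse1592 (edgeR adjusted p 1), so a difference between them was not shown.

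The genes around the receptors were counted from lists of the pathway. The shares of all genes to read these counts against are 5.0%, 4.74%, 4.31% and 8.19% called higher for genotype. For stimulation they are 8.21%, 11.7%, 6.29% and 13.3% called higher and 4.10%, 9.83%, 2.58% and 9.52% called lower. Among ITAM adaptors and other receptors coupled to Syk, 8, 9, 7 and 9 of 12 tested were called higher in T41B (sham VEH, stimulated VEH, sham BD10-2, stimulated BD10-2) and none lower. Clec7a, the receptor for fungal beta-glucan, differed by 4.26 ± 0.41, 3.71 ± 0.39, 4.11 ± 0.42 and 3.77 ± 0.41, and Trem2, a lipid-sensing receptor, by 2.51 ± 0.25, 2.40 ± 0.26, 2.57 ± 0.27 and 2.98 ± 0.28 (largest edgeR adjusted p 4.8e-07). With stimulation 4, 5, 4 and 5 of this list were called higher and 1, 2, 1 and 1 lower (WT VEH, T41B VEH, WT BD10-2, T41B BD10-2), and 1 or 2 of 12 is near the share of all genes called lower. Cd300lb was called higher in all 4, from sham means of 0.0296 ± 0.0593, 0.334 ± 0.241, 0.146 ± 0.133 and 0.272 ± 0.165 CPM (SD) to stimulated means of 2.2 ± 0.302, 1.48 ± 0.56, 2.52 ± 0.52 and 2.39 ± 0.605, and its fold changes are not given because the sham slices hold few counts. Itgam, a chain of complement receptor 3, fell by 1.06, 0.91, 1.11 and 0.63 (largest edgeR adjusted p 0.00288).

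Of the Src-family kinases, which phosphorylate the ITAM, 2, 3, 3 and 3 of 7 tested were called higher in T41B and none lower. Lyn differed by 1.11 ± 0.23 in sham VEH slices (edgeR adjusted p 0.00254). With stimulation 1, 2, 0 and 4 were called higher, of which the first 3 counts are near the share of all genes. Lyn changed by 1.06 ± 0.22 in T41B VEH and 1.49 ± 0.20 in T41B BD10-2 slices (edgeR adjusted p 0.000685 and 9.14e-07).

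Of 27 genes for Syk substrates and downstream signalling, 16, 9, 15 and 15 were called higher in T41B and none lower. Vav1, an exchange factor for Rac, differed by 1.48 ± 0.20 in sham VEH slices (edgeR adjusted p 1.29e-05), and Rac2 by 2.10 ± 0.31 in stimulated VEH slices (edgeR adjusted p 5.32e-05). Stimulation called 6, 5, 5 and 8 of them higher and 2, 6, 3 and 5 lower. Pik3ap1, an adaptor for PI3-kinase, rose by 1.72 ± 0.24, 1.53 ± 0.22, 1.81 ± 0.27 and 1.99 ± 0.20 (largest edgeR adjusted p 2.34e-05). Pik3cg, a PI3-kinase catalytic subunit, fell by 1.67, 1.53, 1.42 and 1.12 (largest edgeR adjusted p 0.000642).

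On the inhibitory side, 10, 8, 10 and 10 of 19 tested ITIM receptors and phosphatases were called higher in T41B and none lower. Ptpn6, the phosphatase SHP-1, differed by 1.98 ± 0.23 in sham VEH slices (edgeR adjusted p 1.14e-06). With stimulation 3, 3, 3 and 6 were called higher and 3, 5, 3 and 5 lower. Lilrb4a, an inhibitory receptor, rose by 3.06 ± 0.39, 2.21 ± 0.32, 3.47 ± 0.41 and 2.61 ± 0.29 (largest edgeR adjusted p 6.92e-06). Inpp5d, the SHIP1 phosphatase recruited by Fcgr2b, fell by 1.65, 1.96, 1.46 and 1.85 (largest edgeR adjusted p 0.000106).

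**Figure D5:**
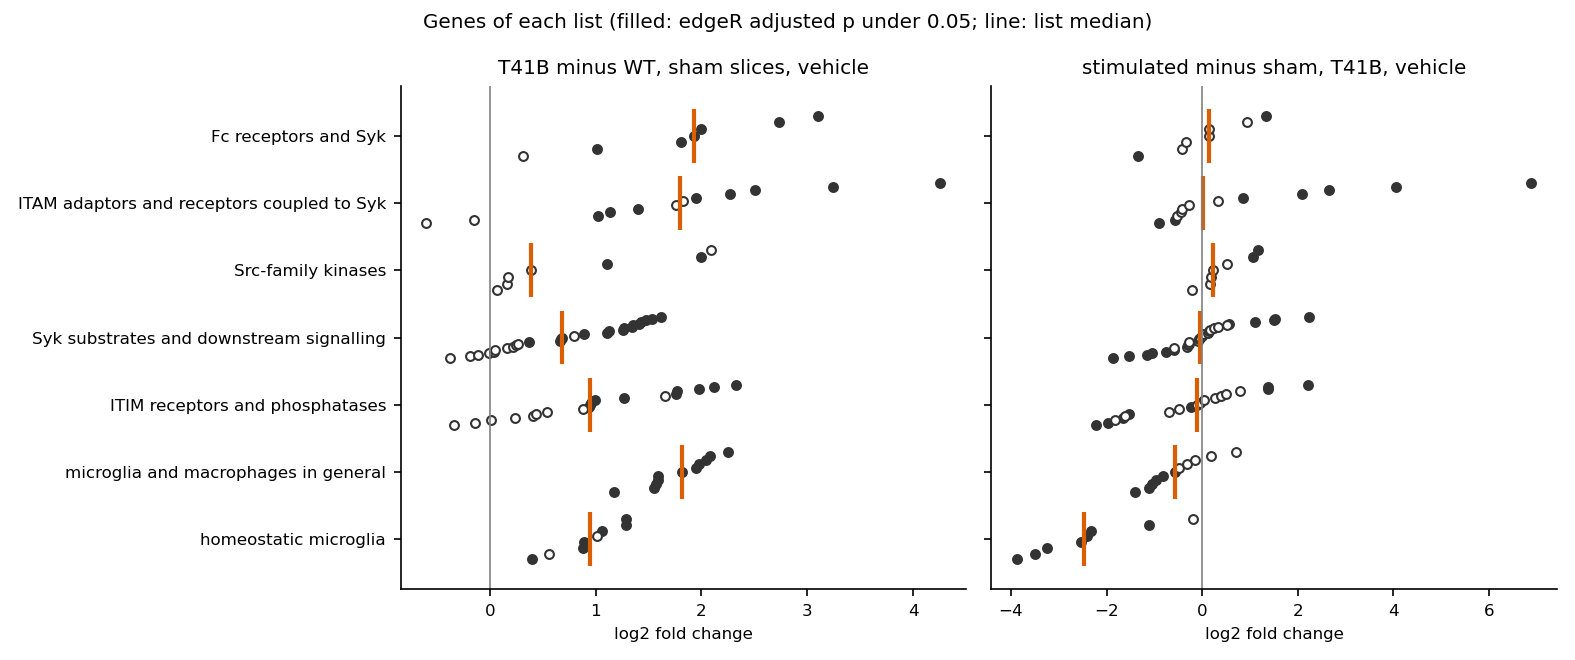
Log2 fold change (x axis) of each tested gene of 7 lists (rows) for T41B minus WT in sham VEH slices (left) and stimulated minus sham in T41B VEH slices (right); filled points passed an edgeR adjusted p of 0.05 and the line is the list median. On the left no called point lies below 0; on the right the pathway lists spread to both sides and the homeostatic microglial genes lie below 0.

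Of 13 other Fc receptors and Fc receptor-like genes, 10 stayed under 1 CPM in every sample and 3 were tested. Fcrls, a microglial Fc receptor-like gene, was higher in T41B by 1.25 ± 0.21, 1.45 ± 0.21, 1.52 ± 0.22 and 1.88 ± 0.23 (largest edgeR adjusted p 0.000191). Trim21, a cytosolic receptor for antibody, rose with stimulation by 1.78 ± 0.32, 2.45 ± 0.30, 1.8 ± 0.37 and 2.52 ± 0.27 (largest edgeR adjusted p 0.00139). Fcer1a and Ms4a2, which join Fcer1g in the IgE receptor, were below 1 CPM throughout, and Fcer1a had no count in any sample.

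The immunoglobulin and B-lineage genes were mostly near the floor: 9 of 14 were below 1 CPM in every sample, Ighg1, Ighg2b and Ighg3 among them. Ighg2c, the other IgG heavy chain of the list, was not among those 9 and did not pass the low-count filter. Their summed level ran from 3.72 to 43.1 CPM, and Ighm, the IgM heavy chain, reached 41.4. Ighm was higher in T41B than WT sham VEH slices (1.44 ± 0.41, edgeR adjusted p 0.0310) and lower with stimulation in T41B VEH (-1.98 ± 0.42, edgeR adjusted p 0.000873) and T41B BD10-2 slices (-1.33 ± 0.36, edgeR adjusted p 0.00746). Of the 4 tested, Igkc, named after its values were seen, was the 1 called higher in T41B sham BD10-2 slices (edgeR adjusted p 0.0351) and was also lower with stimulation in T41B BD10-2 slices (edgeR adjusted p 0.0180). The part of these genes in the members' values was not tested. Monocyte genes (5 of 5), neutrophil genes (7 of 7) and T and NK cell genes (8 of 8) were below 1 CPM in every sample, with summed levels of 0 to 1.20, 0 to 0.397 and 0 to 2.57 CPM. Of 5 mast cell genes, Cpa3, Cma1 and Tpsb2 had no count and Mcpt4 was below 1 CPM in every sample, while Kit reached 135 CPM. Border macrophage genes summed to 0.553 to 6.85 CPM, and 0, 0, 0 and 1 of 4 tested were called higher in T41B. Neuronal genes summed to 1854 to 3875 CPM and astrocyte genes to 5798 to 10974. By genotype, 2, 2, 2 and 4 of 5 astrocyte genes were called higher in T41B, and 1, 2, 2 and 0 of 6 neuronal genes lower. Their part in the members' values was not tested.

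Likeness of pattern was measured over the 32 samples as the root mean square difference between centred log2(CPM + 1) profiles, among 16192 genes averaging at least 1 CPM. The nearest genes to Fcgr2b were Tyrobp (0.272), Lyz2 (0.275) and Trem2 (0.281), against its own spread of 1.175. Genes near to Fcgr3 included Ly86 (0.254) and Ctsh (0.321), and those nearest to Fcer1g were Capg (0.178), Cyba (0.207) and Ctsz (0.215). Syk lay nearest to Msn (0.193), Nfkbia (0.194) and Tcirg1 (0.199). Fcgr1 was nearest to Treml2 (0.415), C3 (0.419) and Adap2 (0.425), and Fcgr4 to Tspo (0.293), Gsdmd (0.307) and Psmb9 (0.314). Fcgrt was nearest to Plxnb2 (0.140), Smad7 (0.141) and Ttc28 (0.142), against its own spread of 0.244. No other member was among the 3 nearest genes of any member.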

How the data were processed

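The authors deposited RSEM expected counts per gene, estimates of the reads per gene, for 36 libraries, and 5.693% of the values have decimals. The submitters' processing notes name cutadapt 1.8.1, STAR 2.7.6a, RSEM 1.3.1, featureCounts 1.6, SAMtools 1.11 and GRCm38.p6 (mm10). The annotation release is not given in the sources used here.

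Counts of libraries with the same mouse and stimulation labels (4 pairs) were added, giving 32 samples, and rounded. Genes were filtered with filterByExpr (minimum count 10), scaled by TMM and tested with edgeR 4.0.16 (quasi-likelihood, 1 coefficient per group) under R 4.3.3. P-values were adjusted by Benjamini-Hochberg over 19478 genes in each of 16 comparisons and called at 0.05. The standard error of an edgeR log2 value is its absolute size divided by the square root of its F statistic. The 95% intervals use the normal quantile, so an interval and its test can disagree near the threshold. The fit was tested on simulated data. Alternatives used DESeq2 1.42.0 and limma 3.58.1.

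Slices were paired by mouse identity in the labels: deviations of the 2 slices of a mouse correlated at a mean r of 0.29 (0.0532 to 0.552, 14 pairs), against -0.0782 for 52 pairs of different mice.

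The members and lists were chosen with earlier results of these data known. The text names all 7 members and, from other lists, genes among the 3 called with the largest change at 1 CPM or more. Some genes that this rule names are not reported here.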

Additional observations from a re-analysis of the deposited data

Results flagged for a closer look

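In 3 of the 42 sets of 4 or 5 mice tested (7 genes, groups of 4 or 5), 1 mouse stood far from the others by Dixon's test; chance flags about 1 in 20. Fcgr1 measured 8.10 CPM in the sham slice of Mouse1592 (T41B BD10-2), against 4.04 to 4.77 in the other 4 mice. Fcgr4 measured 1.38 CPM in the sham slice of Mouse1551 (T41B VEH), against 0.638 to 0.688 in the other 3. Syk measured 43.8 CPM in the stimulated slice of the same Mouse1551, against 30.2 to 31.2 in the other 3.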

How the results depend on the processing

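The 112 member values gave 1743 alternative values, of which 29 lost and 8 gained a call and 0 called values changed sign; 51 values uncalled in either fit changed sign and were not counted as reversals. Of 35 member calls, 29 held under every alternative that could test them. Leaving out 1 mouse gave 3 to 6 members called for stimulation in T41B BD10-2 slices (3 without Mouse1563, 5 with all mice) and 0 to 1 for the T41B minus WT response under BD10-2 (1 without Mouse1592). The replicate block by mouse, as a random effect, ended the sham VEH genotype calls of Fcgr1 (1.70, adjusted p 0.182 in limma) and Fcgr4 (3.13, adjusted p 0.129 in limma) and added stimulation calls of Fcgrt in T41B VEH (-0.32, adjusted p 0.0201) and WT BD10-2 slices (-0.37, adjusted p 0.0419, both in limma); it changed no other member call, and as a fixed block it changed none.

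Relative to the 11 general microglial genes (log2, T41B minus WT, no test), values that were positive in CPM turned negative. Among called values, with a pseudocount of 1 these were Fcgr1 -0.44, Fcgr4 -0.92 and Syk -0.74 in sham VEH slices, Fcgr4 -0.24 and Syk -0.24 in stimulated VEH slices, Fcgr3 -0.24, Fcgrt -1.19 and Syk -0.70 in sham BD10-2 slices, and Fcgr4 -0.05, Fcer1g -0.13, Fcgrt -1.41 and Syk -0.61 in stimulated BD10-2 slices. With a pseudocount of 0.1, chosen after seeing those values, they were Fcgr1 -0.11 and Syk -0.73, Syk -0.27, Fcgr3 -0.24, Fcgrt -1.22 and Syk -0.70, and Fcer1g -0.11, Fcgrt -1.44 and Syk -0.66; the 3 called Fcgr4 reversals were then positive, since a pseudocount of 1 exceeds most levels of that gene and shrinks its change by construction. Values that were positive but not called turned negative too: Fcgrt -1.38 and -1.31 in sham and stimulated VEH slices (-1.43 and -1.36 with a pseudocount of 0.1), and in sham BD10-2 slices Fcgr1 -0.66 (-0.49) and Fcgr4 -1.25 (-0.50).

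Counts over all genes moved by more than 1.5 times in these cases. For stimulation, 2397 genes in WT VEH slices became 1581 with only these groups, 4138 with the mouse as a random block and 1238 without Mouse1509; 4197 in T41B VEH slices became 2582, 6307 and 2648 (without Mouse1551); 1727 in WT BD10-2 slices became 3117 with the random block and 758 without Mouse1565. For genotype, 1215 in sham VEH slices became 352 with batch as a covariate, 556 without Mouse1551 and 2066 without Mouse1510; 1128 in stimulated VEH slices became 678 without Mouse1551; 1062 in sham BD10-2 slices became 1731 with only these groups and 484 without Mouse1590; 2056 in stimulated BD10-2 slices became 1240 with only these groups and 1055 without Mouse1565. Counts of 0 also moved: treatment in WT slices to 26 (stimulated) and 1 (sham) without Mouse1524 and to 25 in DESeq2 (stimulated), the T41B minus WT response to 79 without Mouse1592 and 20 in DESeq2 (BD10-2) and to 5 with batch as a covariate (VEH), and the BD10-2 minus VEH response in T41B slices to 1 in DESeq2. The cause was not tested.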
